A study of Homo sapiens with 480 samples.

Results

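AP-1 is a family of transcription factors that bind DNA as pairs of basic leucine zipper proteins. The 10 genes described here are a list of names, drawn up with earlier results of these data known, and comprise the FOS genes FOS, FOSB, FOSL1 and FOSL2, the JUN genes JUN, JUNB and JUND, and the related genes ATF3, MAFF and BATF3. All 10 were found among the 27021 genes of each table. Messenger RNA was measured in 480 single cells of 5 groups of 96. BJ is a long-used cell line, fibroblasts of neonatal human skin; the BJ group, labelled WT, carried no factors, and such cells were expanded in medium with 10% fetal bovine serum. The groups of day 2, day 8 and day 16 were BJ cells with induced viral expression of the reprogramming factors OCT4, SOX2, KLF4 and MYC. The day 16 cells were split by the surface epitope TRA-1-60, a marker of pluripotent cells, into a positive and a negative fraction. All groups were trypsinized before capture. No label names a second culture, infection or chip, so each group counted as 1 sample, its cells were not replicates, and the differences between groups carry neither a replicate check nor a p-value.

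FOS proteins cannot pair with one another and bind DNA with a JUN partner, whereas JUN proteins can also pair among themselves. FOS, FOSB, JUN and JUNB are immediate-early genes, transcribed within minutes of a growth factor, serum or stress signal through the MAP kinases and the serum response factor SRF, and their messengers are short-lived. In fibroblasts AP-1 sits at many of the enhancers that are open in the cell type, and loss of AP-1 binding there is a known early step of reprogramming by these 4 factors.

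The start regions of FOS, FOSB, JUN and JUNB are shown because these are the immediate-early genes of the family and because FOS and FOSB varied together from cell to cell. Each line gives the 120 bases before the annotated start, 5′ to 3′ on the strand of the gene, from RefSeq for GRCh38.p14; the expression tables use hg19, and no coordinate was carried between the builds. Capitals mark TGACG, the core of the cAMP response element, JUN's variant TGACATCA, and the TATA box TATAAA.
FOS: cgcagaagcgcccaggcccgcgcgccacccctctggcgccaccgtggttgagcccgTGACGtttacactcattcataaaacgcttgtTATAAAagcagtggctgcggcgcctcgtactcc
FOSB: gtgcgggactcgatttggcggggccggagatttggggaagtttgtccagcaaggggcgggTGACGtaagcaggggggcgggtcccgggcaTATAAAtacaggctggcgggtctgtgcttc
JUN: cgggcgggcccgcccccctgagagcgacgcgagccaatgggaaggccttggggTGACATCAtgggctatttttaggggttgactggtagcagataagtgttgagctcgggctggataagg
JUNB: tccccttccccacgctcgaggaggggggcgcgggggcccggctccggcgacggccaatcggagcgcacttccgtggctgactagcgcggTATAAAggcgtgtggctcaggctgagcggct

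These windows lie at chr14:75278708-75278827 on the plus strand for FOS, chr19:45467876-45467995 on the plus strand for FOSB, chr1:58784048-58784167 on the minus strand for JUN and chr19:12791366-12791485 on the plus strand for JUNB. FOS and FOSB have the same pair of elements at nearly the same places. TGACG begins 64 bases before the start of FOS and 60 before that of FOSB, and TATAAA begins 33 and 30 bases before those starts. JUN has TGACATCA from 67 to 60 bases before its start and no TATAAA in the window, and JUNB has TATAAA 31 bases before its start but lacks TGACG. All motifs were searched on both strands, and TGACG is part of the full element TGACGTCA. Of 35116 promoter windows of this length, 13.3% hold TGACG, 1.29% TGACGTCA, 1.79% TGACATCA and 5.63% TATAAA. The AP-1 site TGANTCA is in 3.34% of windows and in none of the windows of the 8 AP-1 genes that the RefSeq table holds. Of the other AP-1 genes, FOSL2 and JUND have TGACG in the window, and the full TGACGTCA lies 54 to 47 bases before the start in 1 of 2 entries of MAFF. Such matches describe letters in a window and are not evidence of binding.

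Deposited values are FPKM, fragments per length of transcript and per sequenced fragments. They were scaled so that each cell summed to 1000000, and levels below are means of these values over kept cells. A gene counted as detected in a cell at a value of 1 or more, and shares carry exact binomial 95% intervals, which cover counting error only. Of 480 cells, 460 were kept, with 92 in BJ, 96 on day 2, 92 on day 8, 95 in the TRA-1-60 positive fraction and 85 in the negative fraction. The median kept cell had between 5678 and 5915 detected genes in every group, but 32 of 95 positive cells had under 4000, against 3 of 85 negative cells. Read depth is not known from FPKM. The tables for day 2 and the negative fraction stood apart in RPL21, with means of 1225 and 992 against 2.49 to 5.90 in the other 3 tables. No source used here says that the 5 tables were normalized jointly. All 16 fibroblast markers averaged 1 or more in BJ, day 2, day 8 and negative cells, but 13 did so in positive cells too. All 16 pluripotency markers did so in positive cells, against 7 on day 8, 5 in negative cells, 2 in BJ and 1 on day 2. The 2 fractions stood further apart in level. The median sum per cell in positive and negative cells was 487 and 11635 for fibroblast markers, and 4885 and 45.6 for pluripotency markers. COL1A1 was at 7.75 in positive against 1162 in negative cells.

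FOS, the founding member of the family, was the highest AP-1 messenger in every group and passed through a trough on day 8. Its mean was 566 in BJ cells, 199 on day 2, 50.8 on day 8, 147 in positive cells and 476 in negative cells. Over single cells the lowest, median and highest values were 0.473, 330 and 2385 in BJ, 0, 69.2 and 1584 on day 2, 0, 0 and 634 on day 8, 0, 37.6 and 1619 in positive cells, and 0, 425 and 1398 in negative cells. Thus the single cells of all groups overlapped. FOS was not detected in the typical day-8 cell but was detected in nearly all BJ and negative cells. The share of cells with FOS was 98.9% in BJ (94.1 to 99.97%), 82.3% on day 2 (73.2 to 89.3%), 45.7% on day 8 (35.2 to 56.4%), 70.5% in positive cells (60.3 to 79.4%) and 94.1% in negative cells (86.8 to 98.1%). Neighbours in the order of levels were BJ, negative, day-2, positive and day-8 cells, and each group's mean lay within 1 SD of the next, since the SD over cells was 559, 369, 283, 281 and 109 in that order. FOS was lower on day 8 both in how many cells had it and in those that did: among cells with FOS the median was 331 in BJ, 155 on day 2, 66.3 on day 8, 97.8 in positive cells and 437 in negative cells. In the positive fraction the share was 88.9% over the 63 cells with at least 4000 genes.

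**Figure D1:**
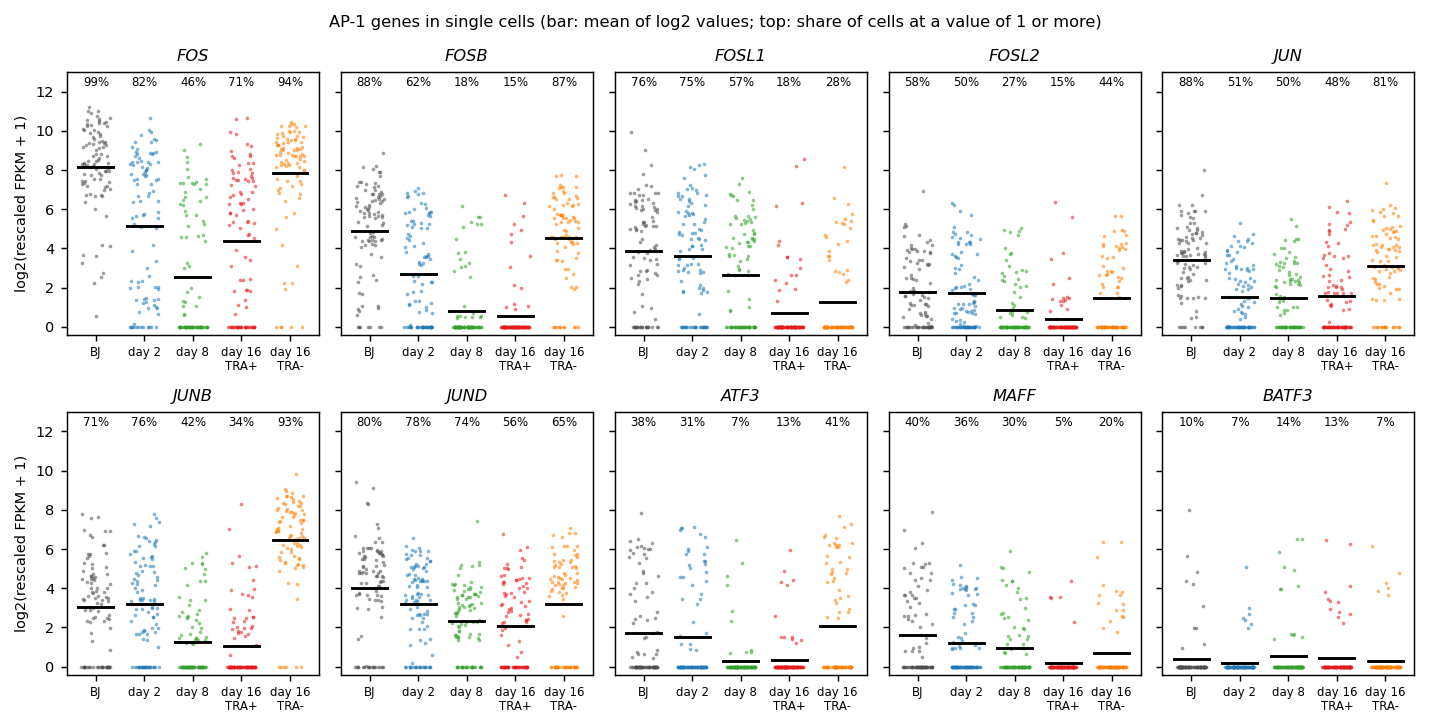
Levels of the 10 AP-1 genes in single cells, as log2(value + 1) of rescaled FPKM on the vertical axis; each point is 1 kept cell, and groups stand in time order with the TRA-1-60 positive fraction before the negative. FOS and FOSB are high in BJ and negative cells and low on day 8, JUNB is high in nearly all negative cells, and FOSL1 is present mainly in BJ, day-2 and day-8 cells.

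FOSB, a close paralogue of FOS, was detected in 88% of BJ cells (79.6 to 93.9%), 62.5% of day-2 cells, 18.5% of day-8 cells (11.2 to 27.9%), 14.7% of positive cells (8.30 to 23.5%) and 87.1% of negative cells (78 to 93.4%). Its means were 68.5, 21.7, 4.43, 3.90 and 47.9 in the same order of groups. FOSB was thus low in positive cells, in which FOS averaged 147.

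FOSL1, also called FRA1, is a FOS gene without the transactivation domain of FOS and accumulates with sustained ERK signalling. Its course differed from that of FOS: the means were 54.3 in BJ, 43.3 on day 2, 21.8 on day 8, 9.65 in positive cells and 10.6 in negative cells. The share of cells was 76.1% in BJ (66.1 to 84.4%), 75% on day 2 (65.1 to 83.3%), 56.5% on day 8 (45.8 to 66.8%), 17.9% in positive cells (10.8 to 27.1%) and 28.2% in negative cells (19 to 39%). FOSL1 was therefore low in both day 16 fractions, also in the negative fraction with its high FOS. Single cells weighed heavily on day 16, where the highest cell gave 40.8% of the summed FOSL1 of positive cells and 31.3% of that of negative cells; without it the means were 5.77 and 7.34. FOSL2, the other FRA gene, was low throughout, at 6.75 in BJ, 7.60 on day 2, 2.84 on day 8, 1.82 in positive cells and 5.79 in negative cells, and was found in 14.7% to 57.6% of cells. In positive cells 1 cell gave 46.3% of all FOSL2, and the mean without it was 0.989.

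JUNB, a JUN protein with weaker transactivation than JUN, was the 1 AP-1 gene called higher in negative cells than in BJ. Its means were 24.9 in BJ, 27.5 on day 2, 5.11 on day 8, 7.90 in positive cells and 166 in negative cells. The lowest, median and highest cells had 0, 9.70 and 221 in BJ, 0, 8.77 and 222 on day 2, 0, 0 and 53.9 on day 8, 0, 0 and 313 in positive cells, and 0, 115 and 905 in negative cells. JUNB reached 100 in 7 of 92 BJ cells, 5 of 96 day-2 cells, 0 of 92 day-8 cells, 2 of 95 positive cells and 45 of 85 negative cells. The share of cells with JUNB was 70.7% in BJ, 76% on day 2, 42.4% on day 8 (32.1 to 53.1%), 33.7% in the positive fraction (24.3 to 44.1%) and 92.9% in the negative fraction (85.3 to 97.4%). In the positive fraction 1 cell gave 41.6% of all JUNB, and the mean without it was 4.66.

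JUN, the best-known partner of FOS, was never abundant per unit of length, at 20.4 in BJ, 4.55 on day 2, 4.36 on day 8, 7.36 in positive cells and 17.3 in negative cells. It was detected in 88% of BJ cells (79.6 to 93.9%) and 81.2% of negative cells (71.2 to 88.8%), and in 48.4% to 51% of cells of the other groups. JUN was already at its low level on day 2, when FOS, FOSB and JUNB were still above their day-8 levels. JUND, which is expressed more constantly than JUN in most cell types, averaged 48.6 in BJ, 18.1 on day 2, 9.26 on day 8, 10.1 in positive cells and 24.2 in negative cells. It varied least in its shares among the JUN genes, from 55.8% in positive cells to 80.4% in BJ.

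ATF3, a stress-induced member of the ATF group that pairs with JUN proteins, was found in a minority of cells of each group: 38% in BJ, 31.2% on day 2, 6.52% on day 8 (2.43 to 13.7%), 12.6% in positive cells (6.70 to 21%) and 41.2% in negative cells (30.6 to 52.4%). Its means were 14.4, 14.3, 1.93, 1.68 and 20.9 in that order. The highest cell gave 48.6% of the sum on day 8 and 37.5% in positive cells, and the means without it were 1.01 and 1.06. MAFF, a small MAF protein without a transactivation domain, averaged 10.8 in BJ, 3.90 on day 2, 3.64 on day 8, 0.585 in positive cells and 3.84 in negative cells, and was found in 5 of 95 positive cells. BATF3, a partner of JUN proteins best known from dendritic cells, was detected in 7.06% to 14.1% of cells. Its mean of 4.17 in BJ rested on 1 cell with 66.1% of the sum, and was 1.43 without that cell.

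The make-up of the family differed between groups. These shares compare genes per length and assume that division by length suits these libraries. The summed means of the 4 FOS genes were 696 in BJ, 272 on day 2, 79.9 on day 8, 162 in positive cells and 540 in negative cells. FOS made up 81.4% of that sum in BJ, 73.3% on day 2, 63.6% on day 8, 90.5% in positive cells and 88.1% in negative cells. FOSL1 made up 7.80% in BJ, 15.9% on day 2, 27.3% on day 8, 5.95% in positive cells and 1.95% in negative cells, highest on day 8. Within single day-8 cells, FOSL1 was the highest FOS gene in 34 of the 73 cells with any of them and FOS in 31. On day 16 FOS was the highest in 63 of 75 positive cells and in 76 of 83 negative cells.

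The summed JUN genes were at 93.8 in BJ, 50.1 on day 2, 18.7 on day 8, 25.3 in positive cells and 207 in negative cells. JUND was the largest part in BJ (51.8%), on day 8 (49.4%) and in positive cells (39.8%). JUNB was the largest part on day 2 (54.8%) and in negative cells (79.98%), where it was the highest JUN gene in 75 of 84 cells with any. The summed FOS genes exceeded the summed JUN genes per length in every group. Cells with at least 1 FOS gene and 1 JUN gene made up 95.7% of BJ, 89.6% of day-2, 75% of day-8, 65.3% of positive and 96.5% of negative cells. On day 8 the cells without such a pair more often lacked the FOS side: 15 had a JUN gene only, 4 a FOS gene only and 4 neither. The median cell had 7 of the 10 AP-1 genes in BJ, 6 on day 2, 4 on day 8, 3 in positive cells and 6 in negative cells. Within groups this number went with the number of detected genes. The rho was 0.46 in BJ, 0.44 on day 2, 0.23 on day 8, 0.61 in positive and 0.37 in negative cells. Of the positive cells, 32 of 95 had under 4000 genes, and the part of this in their low count and share was not tested.

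**Figure D2:**
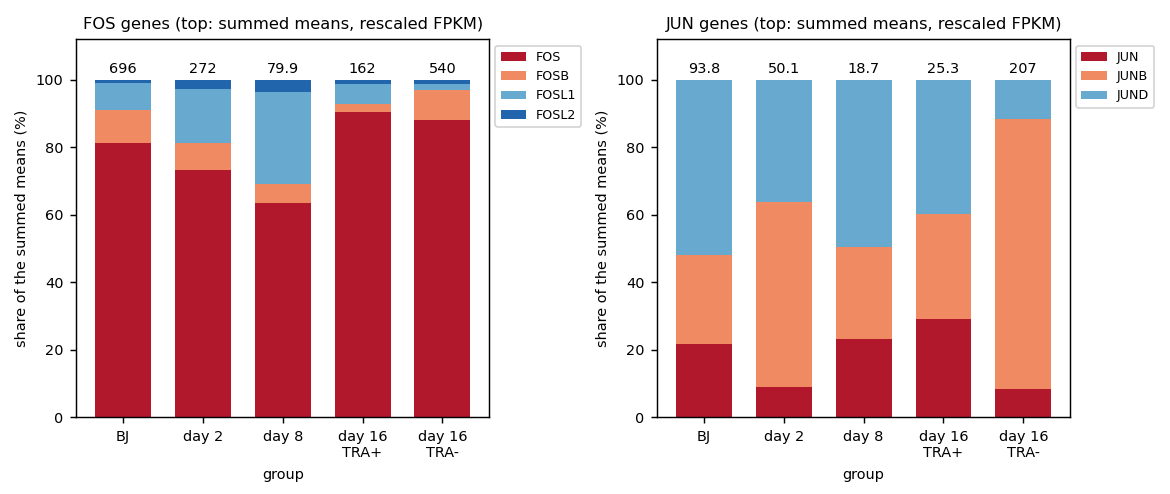
Share of each gene in the summed mean level of the FOS genes and of the JUN genes, in percent, for each group. FOSL1 takes 27.3% of the FOS genes on day 8 and JUNB 79.98% of the JUN genes in TRA-1-60 negative cells.

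On day 2 against BJ, 6 of the 10 AP-1 genes were at least 2-fold lower and 0 higher. A gene was called so when log2((mean + 1)/(mean + 1)) was 1 or more in size and the mean log2 values differed in the same direction. Of the 12480 genes that averaged at least 1 in one or both groups, 12.1% were at least 2-fold lower by this rule and 12.2% higher. The log2 ratio was -1.95 for JUN, -1.67 for BATF3, -1.61 for FOSB, -1.50 for FOS, -1.37 for JUND and -1.27 for MAFF. JUNB, FOSL1, FOSL2 and ATF3 lay between -0.32 and 0.15. The median over the 10 was -1.32, beside -0.02 over all genes. On the scale of differences of mean log2 values 3 of the 10 were lower, and the BATF3 ratio was -0.91 without the highest cell of each group. Markers of other cell types and of the cell cycle moved in the same comparison, and their part in the AP-1 difference was not tested. Of the measured markers, 4 of 5 of keratinocytes and 7 of 8 of epithelia were higher on day 2, with KRT6A at 253 on day 2 and listed at 0 in BJ. The sum per cell of keratinocyte markers ran from 0 to 6911 on day 2 and from 0 to 281 in BJ, where 5 of the 11 were at 0, and that of epithelial markers from 5.6 to 12140 on day 2 and from 0 to 2327 in BJ. Of 16 fibroblast markers 7 were lower and 1 higher, and of 21 genes of G2 and M phase 6 were lower.

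On day 8 against day 2, a comparison that shares the day-2 cells with the one before, 5 AP-1 genes were at least 2-fold lower and 1, BATF3, was higher (1.58), beside 12.5% lower and 13% higher among 12577 genes. ATF3 had a log2 ratio of -2.39, JUNB -2.22, FOSB -2.06, FOS -1.95 and FOSL2 -1.16. JUN (-0.05) and MAFF (-0.08), which were lower on day 2 than in BJ, had about equal means on day 8 and day 2. The median was -1.06, beside 0.06 over all genes. BATF3 (0.33) and FOSL2 (-0.85) were not called as differences of mean log2 values, nor with a pseudocount of 10 (0.38 and -0.45), while FOSL1 (-0.96) and JUND (-0.90) passed 2-fold in 4 and 2 of the 11 alternatives. Beside these, 12 of 12 measured epithelial markers were higher and 9 of 16 fibroblast markers lower on day 8, with an epithelial sum per cell of 95 to 19405 on day 8 and 5.6 to 12140 on day 2; their part was not tested. Of the 5 groups day 8 had the lowest mean of FOS and positive cells that of MAFF. For JUNB and ATF3 these groups lay close: without the highest cell of each group JUNB was at 4.57 on day 8 and 4.66 in positive cells, and ATF3 at 1.01 and 1.06. Against BJ, 9 of 10 were lower on day 8 (background 15%) and BATF3 was not (-0.09). FOSL2 lost that call in 5 of the 11 alternatives and MAFF in 2, with -0.91 and -0.65 as differences of mean log2 values.

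TRA-1-60 positive cells had lower levels than negative cells for 8 of the 10 AP-1 genes and higher for 0, beside 21.4% lower and 24.8% higher among 14060 genes. JUNB had the largest log2 ratio, -4.23, then FOSB -3.32, ATF3 -3.03, FOS -1.69, MAFF -1.61, FOSL2 -1.27, JUND -1.19 and JUN -1.13. FOSL1 (-0.12) and BATF3 (0.35) were not called. FOS, FOSB, JUNB and ATF3 stayed past 2-fold in all 11 alternative ways of processing, whereas JUN, JUND, FOSL2 and MAFF did not. JUN, JUND and FOSL2 had ratios of -0.75, -0.87 and -0.95 over cells with at least 4000 genes. FOSL1 has no settled direction here, as its ratio ran from -1.39 to 1.05 over the alternatives. Other features moved with this split and their part in the AP-1 difference was not tested: 15 of 16 fibroblast markers were lower in positive cells, with none at 0 in either fraction, and their sum per cell ran from 49.1 to 5993 in positive and from 4451 to 27772 in negative cells. All 21 genes of G2 and M phase were higher in positive cells, with a sum per cell from 27.7 to 15364 (median 2509) in positive and from 0 to 9245 (median 27.4) in negative cells.

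Each fraction was also set against day 8, the group they share as reference. In positive cells FOS was higher (1.51), FOSL1 (-1.10) and MAFF (-1.55) were lower, and the other 7 lay between -0.45 and 0.64, beside 30.3% higher and 11.6% lower among 13719 genes. With cells scaled on housekeeping genes FOSL1 was at -0.13, and with a pseudocount of 10 neither FOSL1 nor MAFF was called. As a difference of mean log2 values MAFF was at -0.79. In negative cells 6 genes were higher and 0 lower, beside 28.4% and 10.6% among 12965 genes. Their log2 ratios were 4.77 for JUNB, 3.20 for FOS, 3.17 for FOSB, 2.90 for ATF3, 1.77 for JUN and 1.30 for JUND. JUND lost the call in 4 of the 11 alternatives, down to 0.71 with cells scaled on housekeeping genes, and JUN in 1, at 0.93 with a pseudocount of 10. FOSL1 was at -0.98 and passed 2-fold in 6. In negative cells 12 of 16 fibroblast markers were also higher than on day 8 and 1 lower, and all 21 genes of G2 and M phase were lower, and their part was not tested. Over all genes the median ratio was 0.49 in both comparisons, so values near 0.49 are those of a typical gene; the medians of the AP-1 genes were -0.14 in positive and 1.53 in negative cells.

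Set against BJ, negative cells had FOS (-0.25), FOSB (-0.51), JUN (-0.23), FOSL2 (-0.19) and ATF3 (0.50) within 2-fold of the starting cells. Over all genes the median ratio against BJ was 0.51 in negative and 0.55 in positive cells. ATF3 was thus near a typical gene, and the others just named lay below it. JUND was at -0.97 and BATF3 at -0.87, and they were lower by 2-fold in 4 and 2 of the 11 alternatives. JUNB was higher (2.69), FOSL1 (-2.26) and MAFF (-1.29) were lower (MAFF -0.91 as a difference of mean log2 values), beside 31.4% higher and 13% lower among 13163 genes. Positive cells had 9 of 10 AP-1 genes below BJ (background 13.6% lower and 34.4% higher), from -3.82 for FOSB and -2.90 for MAFF to -1.36 for JUN, and BATF3 was at -0.53.

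**Figure D3:**
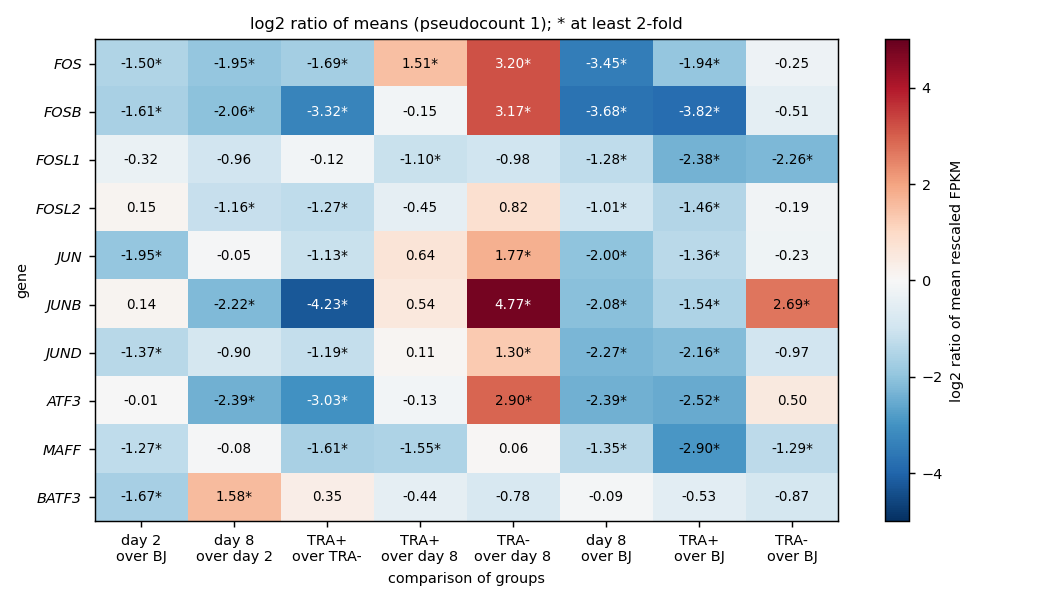
Log2 ratio of means (rescaled FPKM + 1) of each AP-1 gene in each comparison, the group named before "over" divided by the one after it, with a star at 2-fold or more. FOS, FOSB, FOSL2, JUNB and ATF3 are starred as lower on day 8 against day 2 and BATF3 as higher, and TRA-1-60 negative cells show JUNB at 4.77 and FOS at 3.20 against day 8.

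Co-variation within a group asks whether AP-1 genes were high in the same cells. Spearman correlations (rho) were taken over the kept cells of 1 group at a time, for genes detected in at least 20% of them. Such cells share a culture and a table and differ in complexity, so each value is a description. FOS and FOSB were the closest pair, with rho of 0.59 over 92 BJ cells, 0.76 over 96 day-2 cells and 0.62 over 85 negative cells. FOSB ranked at place 1 for FOS among 8826 genes in BJ, 8906 on day 2 and 9024 in negative cells. With the number of detected genes held fixed, the values were 0.56, 0.74 and 0.62. On day 8, where FOSB was below the 20% minimum, rho was 0.54, and 16 of the 17 cells with FOSB also had FOS, which was present in 42 of 92. In positive cells rho was 0.21, with FOSB in 14 cells, 12 of which had FOS.

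**Figure D4:**
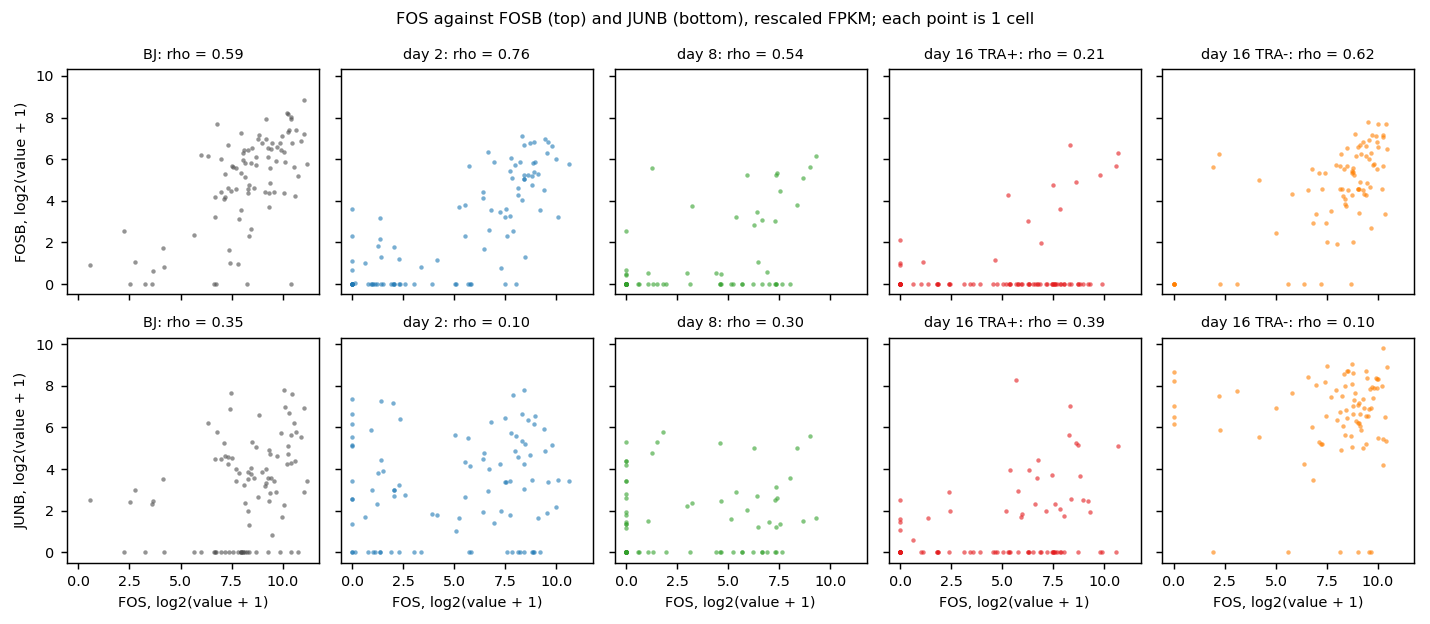
FOS against FOSB (upper row) and against JUNB (lower row) in single cells, both axes as log2(value + 1) of rescaled FPKM, 1 panel per group. FOSB rises with FOS in BJ, day-2 and negative cells (rho 0.59, 0.76 and 0.62), while JUNB in negative cells is high whatever the level of FOS (rho 0.10).

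Between FOS genes and JUN genes the correlations were weaker. The median over pairs was 0.24 in BJ, 0.28 on day 2 and 0.10 in negative cells (12 pairs each), 0.13 on day 8 (9 pairs) and 0.39 in positive cells (3 pairs, all with FOS). With the number of detected genes held fixed these were 0.17, 0.25, 0.11, 0.08 and 0.24. FOS and JUN had rho of 0.38 in BJ, 0.37 on day 2, 0.15 on day 8, 0.41 in positive and 0.38 in negative cells. In the negative fraction JUN stood at place 8 and ATF3 at place 4 (rho 0.42) among the genes nearest to FOS. The typical gene had a rho with FOS of 0.01 there and on day 8, against 0.10 in BJ, 0.13 on day 2 and 0.22 in positive cells. In positive cells FOS also went with the number of detected genes (rho 0.54). The FOS correlations of positive cells therefore stand on a raised base: a rho of 0.41 with JUN was at place 469 of 9305 genes. Those of BJ and day 2 stand on a base that is raised less. On day 2 a rho of 0.10 with JUNB was at place 5218 of 8906 genes.

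JUNB had little relation to FOS in negative cells, where both were high. Its rho with FOS was 0.35 in BJ, 0.10 on day 2, 0.30 on day 8, 0.39 in positive cells and 0.10 in negative cells. In negative cells JUNB averaged 164 in the 80 cells with FOS and 197 in the 5 cells without it. FOSL1 had little relation to FOS in the 4 groups in which both were in 20% of cells, with rho from -0.11 in negative cells to 0.14 on day 2. On day 2 FOSL1 went with JUND (0.44) and JUNB (0.33), and on day 8 with MAFF (0.33) and FOSL2 (0.31). FOSL2 had the lowest FOS-JUN pair in each group with 9 or more pairs, down to -0.10 with JUND on day 8.

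**Figure D5:**
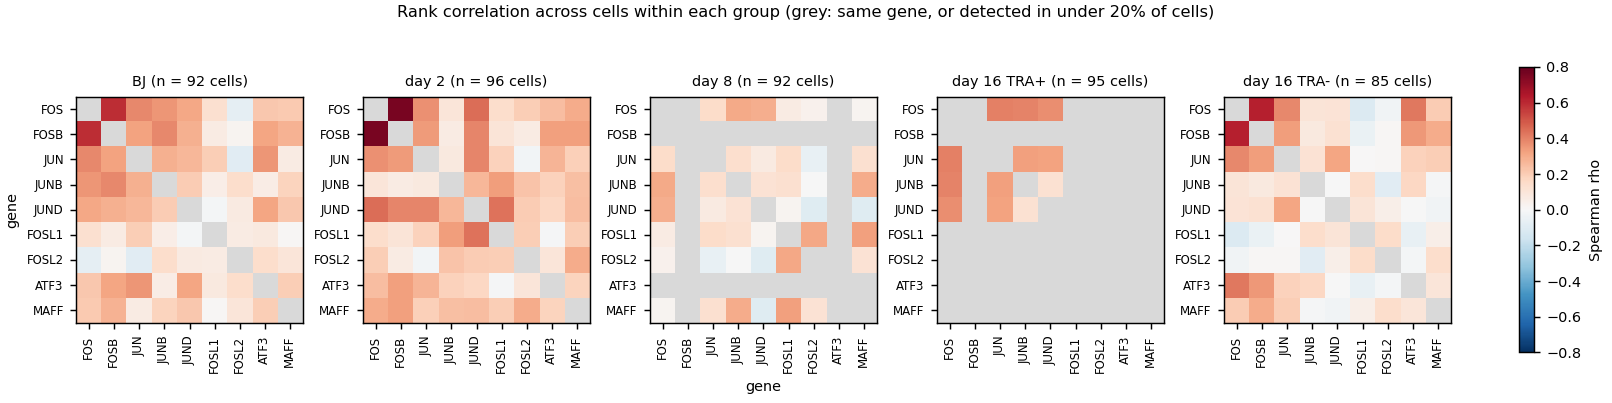
Spearman rho over the cells of each group for pairs of AP-1 genes, as colour from blue (negative) to red (positive); grey marks a gene with itself and genes in under 20% of cells. FOS with FOSB gives the highest value in BJ, day-2 and TRA-1-60 negative cells, and FOSL1 with FOS is near 0 in the 4 groups other than positive cells, where FOSL1 is grey.

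Among all genes, those nearest to each AP-1 gene were taken as the 5 with the highest median rho over the groups in which both were detected in 20% of cells. For FOS over 5 groups and 6772 genes these were DUSP1 (0.44), OAZ1 (0.39), JUN (0.38), CHCHD3 (0.37) and ID2 (0.37). DUSP1, a phosphatase that inactivates MAP kinases and is itself an immediate-early gene, had a rho of 0.30 to 0.57 in every group and stayed at place 1 with detected genes held fixed, whereas CHCHD3 dropped to place 886. For FOSB over 3 groups they were FOS (0.62), DUSP1 (0.47), ARID5B (0.46), KLF6 (0.45) and ARPC5 (0.42). For JUN they were FOS (0.38), EPB41L2 (0.35), CYR61 (0.33), JUND (0.32) and IER2 (0.31), of which CYR61 and IER2 are immediate-early genes. For JUNB they were BHLHE40 (0.32), ACTB (0.32), TMEM59 (0.31), FOS (0.30) and PRELID1 (0.30).

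FOSL1 had other neighbours. Over 4 groups and 7259 genes those nearest to it included RHOC (0.34), NET1 (0.33), INTS12 (0.30) and SMURF2 (0.30); RHOC is a small GTPase of the cytoskeleton and NET1 an exchange factor for such GTPases. For JUND, PFKP (0.38), PFN1 (0.37), RPL8 (0.35), ACTG1 (0.35) and ARPC1B (0.34) were nearest, all abundant genes with a rho that turned negative in at least 1 group except RPL8. For FOSL2 they were MIEN1, MRPL32, PHLDA2, COG1 and TMED3 (0.25 to 0.28), for ATF3 CTSB, FOSB, PRKCA, TEX30 and RSL24D1 (0.31 to 0.36), and for MAFF UAP1, SLC9A3R2, TRUB2, HES1 and CFL2 (0.28 to 0.34). BATF3 was in too few cells to be ranked. The lowest rho over groups was also below 0 for OAZ1 and CHCHD3 (FOS), ARPC5 (FOSB), ACTB, TMEM59 and PRELID1 (JUNB), SLC9A3R2 and TRUB2 (MAFF). It stayed above 0 for the genes named for JUN, FOSL1, FOSL2 and ATF3, but only just for RHOC (0.008) and NET1 (0.006) with FOSL1. With detected genes held fixed, PFKP dropped to place 149 and RPL8 to 591 for JUND, and TMEM59 to 526 for JUNB. ACTG1 rose to place 1 for JUND.

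Lists of genes around AP-1 were read beside the median log2 ratio of all genes, which was -0.02 on day 2 against BJ, 0.06 on day 8 against day 2, 0.06 in positive against negative cells, and 0.49 in positive and 0.49 in negative cells against day 8. The shares of all genes called higher and lower, given above for each comparison, are the base for the counts of each list. For correlations a list was scored in each cell as the mean of log2(value + 1) over its genes. Other immediate-early genes were mostly lower on day 2 than in BJ and higher in negative cells than on day 8. Of 20 further immediate-early genes, 10 of 18 measured were at least 2-fold lower on day 2 than in BJ and 2 higher (median log2 ratio -1.05), including the messenger-decay factor ZFP36 (17.2 on day 2 and 66.2 in BJ), KLF6 (25.4 and 81.9) and IER2 (23.8 and 70.1), while EGR2 was higher (7.83 and 0.297). On day 8 against day 2, 4 of 17 were lower and 0 higher (median -0.67), with EGR1 at 1.44 on day 8 and 18.2 on day 2. In positive against negative cells 11 of 18 were lower and 0 higher (median -1.25). EGR2 was at 2.93 in positive and 132 in negative cells, and the matricellular gene CYR61 at 51.2 and 276. Against day 8, 12 of 18 were higher in negative cells and 0 lower (median 1.18), while in positive cells 1 of 17 was higher, TRIB1, and 1 lower, IER5 (median 0.14). Within groups FOS went with the score of these genes, with rho of 0.47 in BJ, 0.59 on day 2, 0.27 on day 8, 0.52 in positive and 0.29 in negative cells. These values do not hold the number of detected genes fixed, with which FOS also went in positive cells.

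The feedback genes of ERK signalling were more often higher than lower on day 8. Of 14 measured, 7 were at least 2-fold higher and 2 lower on day 8 than on day 2 (median 0.88), including the phosphatase DUSP4 (19.9 on day 8 and 2.35 on day 2), the ETS factor ETV4 (78.5 and 13) and the inhibitor SPRY1 (12.5 and 2.02). The 2 lower were DUSP1 (33 on day 8 and 111.6 on day 2), the gene nearest to FOS, and DUSP2 (0.36 and 6.28). In negative cells against day 8, 6 of 13 were higher, with DUSP6 at 451 against 40.2. In positive cells against day 8, 7 of 14 were higher and 2 lower, with SPRY2 at 62.3 against 10.6. Positive against negative cells had 2 higher and 5 lower of 14, with DUSP6 at 134 in positive and 451 in negative cells, and day 2 against BJ had 3 higher and 3 lower of 14, with DUSP6 at 10.1 and 62.2. The medians were 0.95 in positive and 0.91 in negative cells against day 8, -0.28 in positive against negative cells and 0.03 on day 2 against BJ. Cell by cell, FOS had a rho with their score of 0.44 in BJ, 0.52 on day 2, 0.35 on day 8, 0.56 in positive and 0.30 in negative cells. DUSP1 is 1 of the 15 genes, and without it the values were 0.32, 0.38, 0.26, 0.53 and 0.21. With detected genes also held fixed they were 0.23, 0.28, 0.29, 0.32 and 0.20 in that order.

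The share called among the kinases and SRF factors upstream of FOS depended on the comparison. On day 2 against BJ, 2 of 18 were higher and 4 lower, beside 12.2% higher and 12.1% lower of all genes. The lower ones included SRF (5.53 on day 2 and 14.6 in BJ) and its cofactor MKL1 (3.78 and 12.7). On day 8 against day 2, 0 were higher and 2 of 18 lower, MAP2K1 and MAPK8. In positive cells 5 of 17 were higher and 1 lower than on day 8, including SRF (26 and 4.84), and in negative cells 4 of 17 were higher, including SRF (15.6 and 4.84), beside 30.3% and 28.4% of all genes. Positive against negative cells had 2 higher and 1 lower of 17, with MAPK8, the JUN kinase JNK1, at 19.2 in positive and 1.64 in negative cells. The medians were 0.10, -0.13, 0.94, 0.36 and 0.26 for these comparisons in the order given. Of the other basic leucine zipper genes, 1 of 14 was higher and 2 lower on day 2 than in BJ, and 0 and 4 of 14 on day 8 against day 2. Against day 8, 6 of 13 were higher in positive cells and 7 of 14 in negative cells, among them the stress factor DDIT3 (203 in negative cells and 28.3 on day 8), and positive against negative cells had 2 higher and 4 lower of 15. Their medians were -0.45, -0.33, 1.39, 1.02 and 0.04 in that order.

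Genes known as AP-1 targets in other settings had their lowest median ratios in positive cells. On day 2 against BJ, 5 of 21 were at least 2-fold higher and 1 lower, beside 6 AP-1 genes that were lower; the ligands EREG (10.7 on day 2 and 0.608 in BJ) and AREG (3.75 on day 2, listed at 0 in BJ) were among the higher. On day 8 against day 2, 10 of 21 were lower and 3 higher, and the secreted phosphoprotein SPP1, among the higher, was at 1398 on day 8 and 12.9 on day 2. In positive cells 12 of 18 were lower and 1 higher than on day 8, and 13 of 18 lower and 1 higher than in negative cells. The collagenase MMP1 was listed at 0 in positive cells, against 46.9 on day 8 and 31.4 in negative cells, and the protease inhibitor TIMP1 was at 116 in positive and 8687 in negative cells. In negative cells against day 8, 6 of 19 were higher and 4 lower. MMP3 was listed at 0 in negative cells, against 31.6 on day 8. These day-8 means rested on few cells, as MMP3 was detected in 3.26% and MMP1 in 15.2% of day-8 cells. The median ratios were 0.05, -0.96, -2.11, -2.23 and 0.50 for these comparisons in the order given. On day 8 the rho with the score of the target genes was 0.49 for FOSL1 (0.43 with detected genes held fixed and 0.47 without VIM, SPP1 and TIMP1, the 3 with 89.3% of the summed level), 0.35 for JUN, 0.24 for JUNB and 0.09 for FOS.

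The list of heat shock and dissociation genes held HSP, DNAJ and BAG genes and no immediate-early gene. It had 0 higher and 1 lower of 12 measured on day 2 against BJ and 0 of 12 called on day 8 against day 2. Positive cells had 4 higher and 2 lower of 11 than negative cells and 3 higher and 0 lower of 11 than on day 8, and negative cells 2 higher and 2 lower of 11 than on day 8. The medians were 0.23, -0.03, 0.57, 0.52 and -0.16 in that order. The rho of FOS with the score of this list was 0.26 in BJ, 0.36 on day 2, -0.06 on day 8, 0.51 in positive and -0.10 in negative cells. Detected genes were not held fixed here either. HSPA1A, a main inducible heat shock gene, was listed at 0 in all groups. HSPA1B was detected in 16.3% of BJ, 22.9% of day-2 and 14.1% of day-8 cells. The housekeeping gene TUBB was also listed at 0 in BJ and on day 2. The 0 of HSPA1A therefore cannot be read as absence of its messenger. The part of handling in the FOS levels was not tested.

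On day 8 the FOSL1 level also varied with markers of cell identity. Over 92 cells its rho was 0.36 with the score of the fibroblast markers, -0.34 with that of the pluripotency markers and -0.25 with that of the epithelial markers, and 0.31, -0.31 and -0.27 with detected genes held fixed. S100A4 held 94% of the summed fibroblast level on day 8, and without it the rho of FOSL1 was 0.38. FOS had 0.17, 0.01 and -0.02 with the same scores. In negative cells JUNB had a rho of 0.32 with the fibroblast score and -0.32 with the G2 and M phase score, without detected genes held fixed. The G2 and M phase score was near its floor there, as the median negative cell had 1 of the 21 genes detected. Markers of keratinocytes, endothelium and blood were also summed in each group: the median cell sum was 7.20 to 100.6 for 11 keratinocyte markers, 0 to 29.3 for 8 endothelial markers and 0 for 11 blood markers, and the rho of FOS with the scores of these lists was between -0.21 and 0.29.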

How the data were processed

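Per the labels' protocols, trypsinized cells were run with STRT scripts on Fluidigm C1 chips and polyadenylated RNA was made into Nextera XT libraries. The authors deposited FPKM, in 5 tables of 27021 genes, 1 per group; STAR, Cuffnorm and hg19 are named per the submitters' processing notes, with versions not given in the sources used here. FPKM are not counts, so no count test was run and depth is unknown. If reads gather at transcript ends, division by length distorts levels between genes. Because each cell was rescaled to its summed FPKM, such a distortion could also shift levels between groups. FPKM were rescaled to 1000000 per cell, and cells were kept with at least 2000 genes at 1 or more and ACTB or GAPDH detected. No doublet caller was run. Levels are arithmetic means; ratios are log2((mean + 1)/(mean + 1)), which understates low genes. With 1 culture per group there is no test between groups. Shares carry Clopper-Pearson 95% intervals, and, by 3 cells over the number kept, a share of 0 would allow up to 3.13% to 3.53%. All AP-1 genes are named. List examples are mostly among the 4 genes with the largest ratio of a comparison. Others, such as DUSP1, were named to complete a count or to state a limit. Genes and lists were chosen with earlier results of these data known. Alternatives changed the scaling, pseudocount, scale, cell filter, thresholds and single high cells; leaving single genes out of list scores was added after seeing the data; code was checked on simulated data. Python 3.11.15, pandas 2.3.3, numpy 2.4.6 and scipy 1.17.1 were used. Some values are not reported here.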

Additional observations from a re-analysis of the deposited data

How the results depend on the processing

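No log2 ratio of a called AP-1 gene turned its direction under any of the 11 alternatives for scaling, pseudocount, scale, cells and low values; of the ratios recomputed, 786 kept their side of the 2-fold threshold, 45 lost it, 22 gained it and 27 uncalled ones changed sign. The 6 genes lower on day 2 than in BJ were 3 by differences of mean log2 values. The 8 genes lower in positive than in negative cells were 5 with cells scaled on housekeeping genes and 4 with a pseudocount of 10. The 2 genes lower in positive cells than on day 8 were 1 with housekeeping scaling, 1 by differences of mean log2 values and 0 with a pseudocount of 10. The median correlation of FOS with JUN genes in positive cells was 0.39 and became 0.24 with detected genes held fixed and 0.15 when pairs in 10% of cells were added. At a detection threshold of 10, the AP-1 genes in at least 50% of cells were 3 on day 2, 0 on day 8 and 1 in positive cells, against 7, 3 and 2 at a threshold of 1. The cause was not tested. Housekeeping scaling moved the median of all genes in positive against negative cells to 0.51 (4956 higher and 2291 lower, against 3480 and 3008), and in positive cells against BJ to 0.92. On FPKM as deposited, day 2 against BJ had 2647 genes higher and 1397 lower (1525 and 1515 after rescaling), and day 8 against day 2 had 1416 and 2368 (1636 and 1571). No paired analysis was possible because the result comes from no test and cell numbers are only names. Depth is unknown, so a gene at 0 in a cell may be missed rather than absent, most of all in the 32 positive cells under 4000 genes.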
